A study of Mus musculus with 8 samples.

Results

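The genes described here sense foreign or misplaced nucleic acids and carry the type I interferon response. The 9 genes were chosen by symbol and are Mb21d1 (cGAS), Tmem173 (STING), Ddx58 (RIG-I), Ifih1 (MDA5), Irf3, Irf7, Stat2, Isg15 and Ifit1. All 9 were found among the 35963 gene symbols of the table, and all 9 passed the filter on low counts. They were measured by RNA sequencing of colonic epithelial cells taken from the proximal colon of mice aged 4 weeks. The 4 libraries labelled Ccna2-KO came from Ccna2 fl/fl vil-Cre mice, in which the villin promoter drives Cre in intestinal epithelium, and the 4 control libraries came from Ccna2 fl/fl mice without Cre. Both groups thus carried the floxed alleles, although the labels call the control genotype wild type. Cells were released from the flushed colon with a buffer, and the labels name no sorting step, so the RNA can include other cells of the epithelial layer. Ccna2 encodes cyclin A2, a partner of cyclin-dependent kinases in DNA synthesis and mitosis.

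In this pathway cGAS binds DNA in the cytosol and makes a cyclic dinucleotide that activates STING, while RIG-I and MDA5 bind RNA and signal through the adaptor MAVS. Both arms lead to phosphorylation of IRF3, and then of IRF7, which switch on interferon genes. Secreted interferon acts through its receptor on a complex that includes STAT2 and IRF9, which binds the interferon-stimulated response element in the promoters of genes such as Isg15 and Ifit1. In the intestinal epithelium the type III interferons act through a receptor of their own and induce a largely overlapping set of genes, so these transcripts do not tell the interferon types apart.

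Promoters are shown first, since this element is the site that the complex with STAT2 and IRF9 binds in genes such as Isg15 and Ifit1. The core of the element was searched as GAAANNGAAA on both strands, where N is any base, in windows from 250 bases before to 50 bases after the annotated start (RefSeq, GRCm38.p6). Windows were given for 8 of the 9 genes, and the promoter of Tmem173 was not analysed here. The core was present in 5 of the 8 genes, against 3.99% of 27025 genes with a window, counting overlapping matches. Of 32 genes with a window from the list of interferon-stimulated genes described below, 14 (43.8%) held it. The 9 genes were chosen for their part in this response, so the share does not set them apart. Among the 8 genes the core occurred in Isg15 (3 overlapping matches), Ifit1 (2), Stat2 (1), Ifih1 (1) and Ddx58 (1). In Ifih1 and Ddx58 the match lay just after the start, at bases 33 and 3. No match was found in the windows of Mb21d1, Irf3 and Irf7. As a check, bases just after the start were looked for in the most abundant curated transcript of each gene (GENCODE M21). They were found for Ddx58, Irf3, Irf7, Isg15 and Ifit1, but not for Mb21d1, Ifih1 and Stat2. Positions in Ifih1 and Stat2, and the absence of a match in Mb21d1, therefore hold for the annotated start only. In the sequences below, read 5′ to 3′ on the strand of the gene, capitals mark the matches.
Isg15, minus strand, chr4:156200819-156200938, bases -120 to -1: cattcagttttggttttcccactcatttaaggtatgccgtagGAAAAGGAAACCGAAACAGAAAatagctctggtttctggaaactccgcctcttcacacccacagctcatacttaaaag
Ifit1, plus strand, chr19:34640769-34640888, bases -120 to -1: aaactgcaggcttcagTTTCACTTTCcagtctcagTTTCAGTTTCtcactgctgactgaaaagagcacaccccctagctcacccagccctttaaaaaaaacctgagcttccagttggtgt
Stat2, plus strand, chr10:128270258-128270317, bases -240 to -181: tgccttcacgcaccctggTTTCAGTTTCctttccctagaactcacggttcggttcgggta
Mb21d1, minus strand, chr9:78443238-78443357, bases -120 to -1, shown for contrast: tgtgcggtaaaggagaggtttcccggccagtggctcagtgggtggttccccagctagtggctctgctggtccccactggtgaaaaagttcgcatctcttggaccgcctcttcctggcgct
Irf3, plus strand, chr7:44997528-44997647, bases -120 to -1, shown for contrast: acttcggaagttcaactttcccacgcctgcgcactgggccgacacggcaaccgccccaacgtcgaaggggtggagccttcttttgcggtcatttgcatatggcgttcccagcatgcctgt
A match describes these letters and does not show that a factor binds there.

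Libraries held 27162083 to 34386731 estimated counts. The targeted gene did not separate the labels. Ccna2 averaged 27.6 ± 18.7 CPM (read counts scaled to library size by TMM in edgeR; SD, n = 4) in the controls and 21.9 ± 5.46 CPM (SD, n = 4) in the libraries labelled Ccna2-KO, and did not pass (edgeR adjusted p = 0.673), so groups are called by their labels. Which exons were deleted is not stated in the labels, and counts per transcript can include reads from exons outside the deletion. The labels do not tie each library to its own animal. The p-values therefore cover only the spread between libraries, which may be technical. The 12 epithelial markers summed to 38740 to 42720 CPM among controls and to 43460 to 47850 CPM in the other group, and Epcam averaged 1884 and 1928 CPM. Car1 weighs heavily in these sums, with means of 12106 and 16396 CPM. The log2 fold change was positive in 8 and negative in 4 of these markers, with a median of 0.06. The 12 leukocyte markers stood lower, at 47.6 to 211 CPM and 14.2 to 30.0 CPM. The library numbers in the labels form a low set (595 to 598, with control replicates 2, 3 and 4 and Ccna2-KO replicate 4) and a high set (621 to 641, with control replicate 1 and Ccna2-KO replicates 1, 2 and 3). Because 1 group has just 1 library in each set, values within the sets are given in place of a test there.

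The DNA sensor rose and its adaptor fell, while the RNA sensors, transcription factors and interferon-stimulated targets among the 9 genes did not pass the test. Of the 9, 1 was called higher and 1 lower at the threshold of 0.05 on the adjusted p (edgeR quasi-likelihood test). Across all 15893 genes tested, 12.1% were called, 6.40% higher and 5.71% lower, and a count of 2 in 9 does not set these genes apart. Groups did not overlap in the same 2 genes, against 19.0% of all genes tested (9.41% with the libraries labelled Ccna2-KO above and 9.60% with them below).

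**Figure D1:**
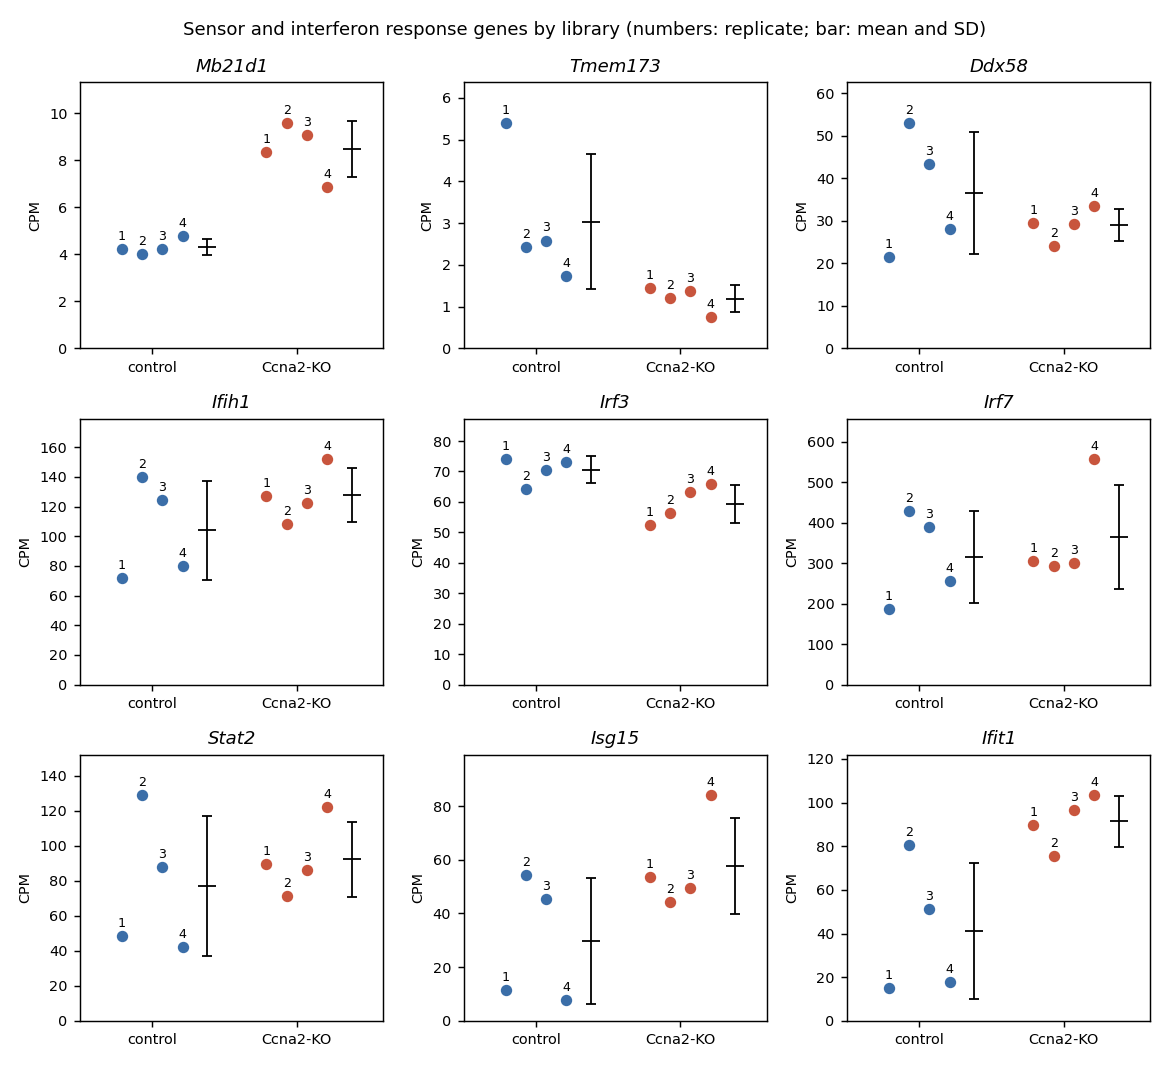
CPM of the 9 genes in each library (points, numbered by replicate), with the mean and SD of 4 libraries beside each group. Mb21d1 lies between 6.86 and 9.59 CPM in those labelled Ccna2-KO, above all controls, while in Isg15 and Ifit1 control replicates 1 and 4 lie far below control replicates 2 and 3.

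Mb21d1 encodes cGAS, the enzyme that binds cytosolic DNA, and lies on the minus strand of chromosome 9 between positions 78430518 and 78443237 (GRCm38.p6, where RefSeq names it Cgas). The controls held 4.22, 4.03, 4.24 and 4.79 CPM in replicates 1 to 4. The libraries labelled Ccna2-KO held 8.36, 9.59, 9.08 and 6.86 CPM. All 4 were above every control, and the controls lay within 1.19-fold of each other. The means were 4.32 ± 0.33 and 8.47 ± 1.19 CPM (SD, n = 4 each), a log2 fold change of 0.97 ± 0.16 (SE; edgeR adjusted p = 0.00542). The difference was present in both number sets. In the low set the controls held 4.03 to 4.79 CPM and Ccna2-KO replicate 4 held 6.86 CPM. In the high set the control held 4.22 CPM and the others 8.36 to 9.59 CPM. With the set as a term, the log2 fold change was 0.87 (adjusted p = 0.00778). The main curated transcript of Mb21d1 took 86.8% of its counts. Tested alone among all transcripts, that transcript had a log2 fold change of 1.07 ± 0.20 (SE) and just missed the threshold (edgeR adjusted p = 0.0571), with groups that did not overlap.

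Tmem173 encodes STING, the membrane protein of the endoplasmic reticulum that receives the cGAS signal. It lies on chromosome 18 between positions 35733678 and 35740554. The gene was scarce, with 357 counts in all for the controls and 146 for the other group. The controls held 5.40, 2.43, 2.58 and 1.73 CPM and the libraries labelled Ccna2-KO 1.45, 1.199, 1.37 and 0.75 CPM, in replicate order. All 4 of the latter were below every control, and control replicate 1 stood apart as the highest. Its log2 fold change of -1.34 ± 0.38 (SE; edgeR adjusted p = 0.0498) passed only narrowly. The call ended when any 1 library other than control replicate 1 or 4 was left out (adjusted p between 0.0744 and 0.124 for those 6 fits), and with upper quartile scaling (adjusted p = 0.0564) or limma voom (0.0653), and for its most abundant transcript alone (-2.19, adjusted p = 0.668). Without control replicate 1 the log2 fold change was -0.90 (adjusted p = 0.0333). With the number set as a term it was -1.83 (adjusted p = 0.00137). STING is also expressed by leukocytes, whose markers fell (11 of 12 lower, 0 higher in edgeR, with 0 higher at an unadjusted p of 0.05, by DESeq2 or by limma voom). Control replicate 1, with the most Tmem173, had the fewest leukocyte marker counts of the controls (47.6 CPM against 88.4 to 211 CPM). The part of leukocytes in the Tmem173 difference was not tested.

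Of 14 genes of DNA sensing, which include the pair above, 13 were tested, 1 rose and 4 fell in edgeR, where 6.40% of all genes rose and 5.71% fell. DESeq2 called the same numbers, limma voom called 1 higher and 1 lower, and the fit with the number set as a term called 1 higher and 2 lower. Of all 15893 genes, these fits called 1410, 1129 and 1477 higher and 1329, 838 and 1415 lower. The median log2 fold change of the list in the main fit was -0.10, against -0.01 for all genes tested. Ikbke, a kinase that phosphorylates IRF3 and IRF7, held 56.8, 77.4, 78.4 and 82.2 CPM in the controls and 49.2, 47.7, 45.7 and 54.6 CPM in those labelled Ccna2-KO. The groups did not overlap, with a log2 fold change of -0.58 ± 0.13 (SE; edgeR adjusted p = 0.0188). Its relative Tbk1 differed by -0.10 ± 0.18 (adjusted p = 0.789). Ifi203, of the interferon-inducible PYHIN family, fell from a mean of 3.02 to 0.66 CPM (-2.20 ± 0.52, adjusted p = 0.0249). Nlrc3, a NOD-like receptor reported to restrain STING, fell from 3.81 to 0.94 CPM (-2.02 ± 0.52, adjusted p = 0.0345). With the number set as a term neither passed, at -1.37 for Ifi203 (adjusted p = 0.0939) and -1.28 for Nlrc3 (adjusted p = 0.154). In both Ifi203 and Nlrc3 the groups overlapped at control replicate 1 (0.84 and 1.11 CPM). Both are expressed by lymphocytes, whose marker Ptprc fell from 25.4 to 4.13 CPM, and the part of such cells in these changes was not tested. In bulk RNA fewer cells of a type and less RNA per cell cannot be told apart.

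The RNA sensors of the RIG-I family did not pass the test in either direction. Ddx58, RIG-I, lies on chromosome 4 between positions 40203777 and 40239825. It held 21.5, 53.1, 43.3 and 27.99 CPM in the controls and 29.5, 24.0, 29.2 and 33.5 CPM in those labelled Ccna2-KO. All of the latter lay inside the range of the controls, and the log2 fold change of -0.33 ± 0.26 (SE) had an adjusted p of 0.471. With the number set as a term the sign turned (0.02). Ifih1, MDA5, lies on chromosome 2 between positions 62595618 and 62646255. It held 71.8, 140.3, 124.2 and 80.2 CPM in the controls and 127.4, 108.4, 122.7 and 152.0 CPM in those labelled Ccna2-KO. Control replicates 1 and 4 were the lowest libraries for Ifih1, and the log2 fold change of 0.29 ± 0.22 had an adjusted p of 0.442. Dhx58 (LGP2), of the same family, averaged 17.1 ± 8.89 and 30.5 ± 7.19 CPM (SD, n = 4 each). Its log2 fold change of 0.84 ± 0.34 (SE) was larger but did not pass (edgeR adjusted p = 0.155).

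Of 14 genes of RNA sensing, 13 were tested, 2 rose and 0 fell in edgeR, where 6.40% of all genes rose and 5.71% fell. At an unadjusted p of 0.05, 4 were higher and 0 lower, against 2023 higher and 2153 lower of all 15893 genes. DESeq2 and limma voom called 0 lower. The median log2 fold change was 0.27, against -0.01 for all genes tested. With the number set as a term 5 were higher, against 1477 of all 15893 genes, and the median was 0.56. Without control replicate 1, 2 were higher and 1 lower, against 2457 and 2170 of all 16247 genes tested, with a median of 0.04. Tkfc, a triokinase that also binds and inhibits MDA5, held 36.2, 40.8, 39.0 and 33.8 CPM in the controls and 59.4, 56.5, 55.4 and 60.4 CPM in those labelled Ccna2-KO. The groups were far apart relative to their spread, with a log2 fold change of 0.63 ± 0.09 (SE; edgeR adjusted p = 0.00343). Nlrx1, a mitochondrial NOD-like receptor that interacts with MAVS, rose from 22.7 ± 4.38 to 34.4 ± 5.10 CPM (SD, n = 4 each; log2 fold change 0.60 ± 0.16 SE, edgeR adjusted p = 0.0417). Mavs itself differed by -0.18 ± 0.15 (adjusted p = 0.518).

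Nucleases and RNA editors that remove the ligands of these sensors showed no call. Of 10 genes of nucleic acid clearance, 0 rose and 0 fell in edgeR, 0 had an unadjusted p under 0.05, and DESeq2 and limma voom called 0. Without control replicate 1, 2 were called higher, against 2457 of all 16247 genes tested. The median log2 fold change in the main fit was 0.13, against -0.01 for all genes tested. Skiv2l, a helicase of RNA decay, averaged 130 ± 17.2 and 137 ± 18.3 CPM (SD, n = 4 each), and Adar, which edits RNA that would otherwise bind MDA5, averaged 76.0 ± 15.7 and 86.9 ± 13.9 CPM.

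Irf3, Irf7 and Stat2 overlapped between the groups. Irf3, present in resting cells and activated by phosphorylation, lies on the plus strand of chromosome 7 between positions 44997648 and 45002848. It held 74.0, 64.3, 70.6 and 73.2 CPM in the controls and 52.4, 56.2, 63.2 and 65.8 CPM in those labelled Ccna2-KO. The groups overlapped by 1 library on either side, and the log2 fold change of -0.25 ± 0.10 (SE) did not pass (edgeR adjusted p = 0.155). Irf3 varied least among the controls of the 9 genes, by 1.15-fold from lowest to highest.

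Irf7, which interferon itself induces, lies on chromosome 7 between positions 141263183 and 141266499. The controls held 187, 429, 390 and 255 CPM and the libraries labelled Ccna2-KO 305, 292, 301 and 557 CPM. Ccna2-KO replicate 4 stood apart from its group, and the log2 fold change of 0.21 ± 0.30 (SE) had an adjusted p of 0.721. Without that library it was -0.07 (adjusted p = 0.901), and with the number set as a term it was 0.66 and passed (adjusted p = 0.0244). Stat2, which acts below the interferon receptors, lies on chromosome 10 between positions 128270498 and 128292853. It held 48.6, 128.7, 87.9 and 42.05 CPM in the controls and 89.4, 71.4, 86.1 and 122.2 CPM in those labelled Ccna2-KO. Control replicates 1 and 4 were again lowest, control replicate 2 was highest, and the log2 fold change of 0.26 ± 0.34 had an adjusted p of 0.679.

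Of 12 transcription factors of the pathway, 0 were called in either direction by edgeR, DESeq2 or limma voom. At an unadjusted p of 0.05, 4 were lower and 0 higher, against 2153 lower and 2023 higher of all 15893 genes. Without control replicate 1, 4 were called lower, against 2170 of all 16247 genes tested. With the number set as a term 1 (Irf7) was called higher, against 1477 of all 15893 genes. Irf5 was scarce, and its groups did not overlap, with 0.56 to 0.998 CPM in the controls and 0.37 to 0.499 CPM in the other group (edgeR adjusted p = 0.124). Irf1, a factor strongly induced by interferon gamma, had a mean of 333 ± 112 CPM in the controls and 177 ± 71.6 CPM in those labelled Ccna2-KO (SD, n = 4 each; log2 fold change -0.91 ± 0.34 SE, edgeR adjusted p = 0.119). The control replicate 1 value of 188 CPM lay within the range of the libraries labelled Ccna2-KO (87.8 to 261 CPM).

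Transcripts of the interferons that were looked up were near the limit of counting, and Ifna4 was the only interferon alpha gene among them. Ifnb1, interferon beta, had 1 count over the 8 libraries and Ifna4 had 0, which allows up to 3 counts. Ifnl2 and Ifnl3, the type III interferons, each had 1 count in the controls and 3 in the other group. Ifnk had 5 and 3 counts, and Ifng, interferon gamma, had the most, with 22 in the controls and 9 in the other group. Their receptors were well covered. Ifnar1, a chain of the type I receptor, averaged 56.2 and 52.4 CPM, and Ifnlr1, a chain of the type III receptor, 29.1 and 27.03 CPM. Ifngr1 and Ifngr2, the interferon gamma receptor, averaged 296 and 313 CPM and 149 and 141 CPM. Of the 14 ligands, receptors and kinases, 8 were tested and 0 were called by edgeR, DESeq2 or limma voom. At an unadjusted p of 0.05, 0 were higher and 1 lower, against 2023 higher and 2153 lower of all 15893 genes. Without control replicate 1, 2 were called lower, against 2170 of all 16247 genes tested.

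Isg15 and Ifit1, the interferon-stimulated targets among the 9 genes, were set apart by their spread among the controls. Isg15 encodes a ubiquitin-like protein that is joined to other proteins, and lies on chromosome 4 between positions 156199424 and 156200818. Its controls held 11.6, 54.3, 45.3 and 7.60 CPM, a 7.15-fold range. The libraries labelled Ccna2-KO held 53.5, 44.3, 49.4 and 84.0 CPM, a 1.90-fold range. Control replicates 1 and 4 lay below all of these, control replicates 2 and 3 lay among them, and the log2 fold change of 0.96 ± 0.56 (SE) did not pass (edgeR adjusted p = 0.320).

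Ifit1 encodes a protein that binds RNA lacking the host cap structure, and lies on chromosome 19 between positions 34640889 and 34650009. Its close relatives in the same cluster can share reads with it. Its controls held 15.1, 80.7, 51.0 and 17.8 CPM and the libraries labelled Ccna2-KO 89.9, 75.6, 96.7 and 103.3 CPM. A single control, replicate 2, exceeded a single library labelled Ccna2-KO, replicate 2. The means were 41.2 ± 31.0 and 91.4 ± 11.8 CPM (SD, n = 4 each). The log2 fold change of 1.15 ± 0.47 (SE) did not pass (edgeR adjusted p = 0.156). Without control replicate 2 it was 1.70 (adjusted p = 0.0392), and under the other alternatives it stayed between 0.88 and 1.77 without passing. In the high number set the control held 15.1 CPM and the others 75.6 to 96.7 CPM, and in the low set the controls held 17.8 to 80.7 CPM and Ccna2-KO replicate 4 held 103.3 CPM.

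**Figure D2:**
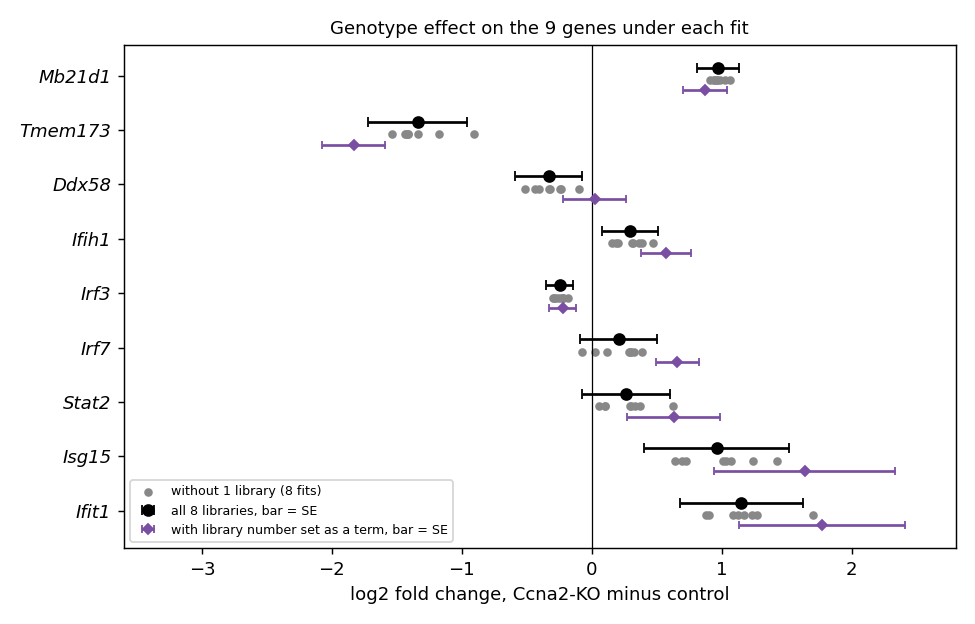
Log2 fold change (Ccna2-KO minus control, x axis) of each of the 9 genes from all 8 libraries (black, bar = SE), without each library in turn (grey) and with the library number set as a term (purple, bar = SE). Mb21d1 stays between 0.87 and 1.06 and Tmem173 stays below 0 in all of these fits, while the points of Isg15 spread from 0.64 to 1.64.

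Per kilobase of the most abundant curated transcript, which allows levels to be set side by side between genes, Irf7 stood highest and the DNA-sensing pair lowest. Control means were 164.5 CPM per kilobase for Irf7, 39.3 for Isg15, 34.7 for Irf3, 19.0 for Ifih1, 17.5 for Stat2, 15.5 for Ifit1 and 9.41 for Ddx58. Those of Tmem173 and Mb21d1 were 1.32 and 1.07. For Isg15, Ifit1 and Mb21d1 the means of the libraries labelled Ccna2-KO were 76.4, 34.4 and 2.09 CPM per kilobase. The ranges over the 8 libraries overlapped between neighbours in this order from Irf7 to Ddx58, and between Tmem173 (0.32 to 2.35) and Mb21d1 (0.995 to 2.37). They did not overlap between Ddx58 (5.55 to 13.7) and Tmem173.

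Most, but not all, of the other interferon-stimulated genes had their lowest values in control replicates 1 and 4, as Isg15 did. All 42 genes of this list, 4 of the 9 described above among them, were tested, and 2 rose and 0 fell in edgeR (for all genes, 6.40% were called higher). At an unadjusted p of 0.05, 6 were higher and 0 lower, against 2023 higher and 2153 lower of all 15893 genes. DESeq2 called 4 and limma voom 5 higher (of all 15893 genes, 1410 and 1129), and both called 0 lower. The log2 fold change was positive in 34 of 42, with a median of 0.34 against -0.01 for all genes tested. The median was 0.61 with the number set as a term, 0.63 without control replicate 2, 0.22 without control replicate 1 and 0.17 without control replicate 4. Ifit3b, an Ifit1 relative whose reads may be shared with the near-identical Ifit3, held 2.09, 6.46, 4.86 and 1.70 CPM in the controls and 10.2, 9.56, 14.4 and 13.1 CPM in those labelled Ccna2-KO. It was called (log2 fold change 1.65 ± 0.40 SE, edgeR adjusted p = 0.0274). Lgals3bp, a secreted glycoprotein, rose from 217 ± 72.6 to 368 ± 30.7 CPM (SD, n = 4 each; 0.77 ± 0.22 SE, adjusted p = 0.0479). Without any 1 library labelled Ccna2-KO, or without control replicate 4, 0 genes of the list were called (of all genes, 572 to 947 and 621 were higher). Without control replicate 1, 4 were called higher, against 2457 of all 16247 genes tested. Without control replicates 2 and 3 in turn, 7 and 1 were called higher, against 683 and 684 of all genes.

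**Figure D3:**
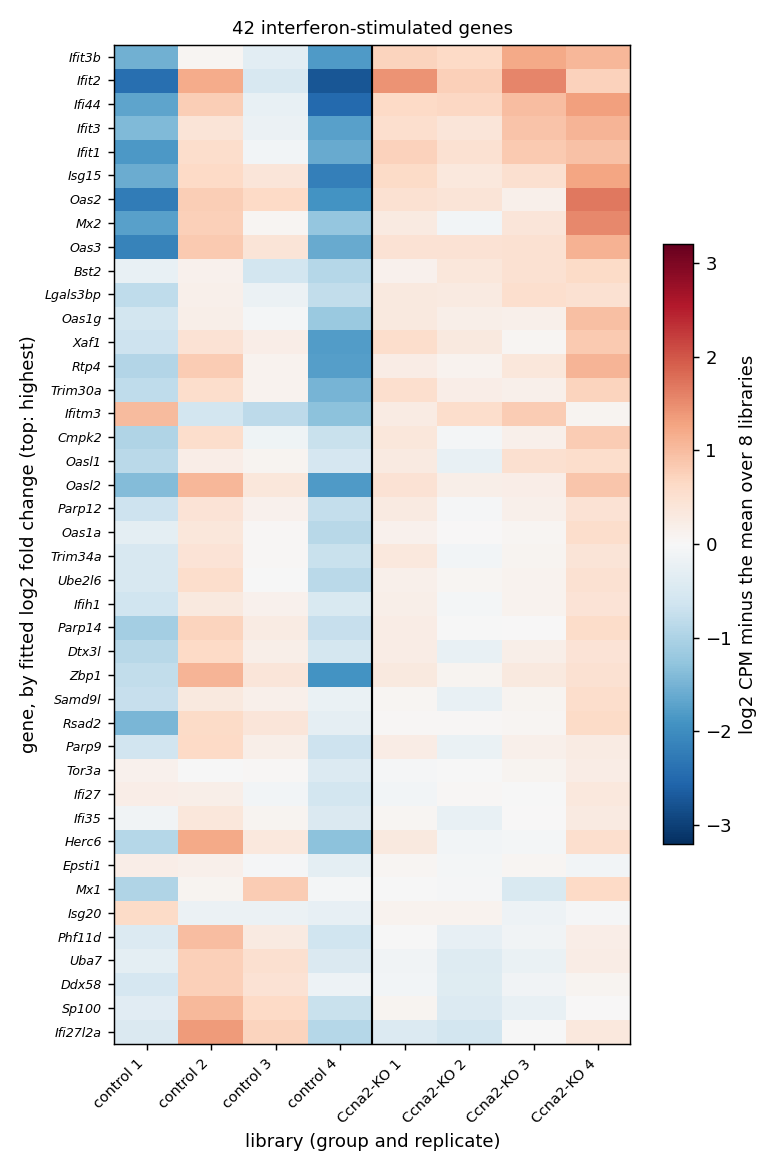
Log2 CPM of 42 interferon-stimulated genes (rows, ordered by fitted log2 fold change) in the 8 libraries (columns), each centred on its mean over the libraries, with red above and blue below it. The columns of control replicates 1 and 4 are blue in most rows, while those of control replicates 2 and 3 are mostly near or above 0 like the libraries labelled Ccna2-KO.

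Summed over the 42 genes, control replicates 1 and 4 held 1249 and 1198 CPM and control replicates 2 and 3 held 2897 and 2248 CPM. The libraries labelled Ccna2-KO held 2460, 2116, 2449 and 3079 CPM. The control group thus held both the lowest sums and the next to highest. Control replicates 1 and 4 were both below all other libraries in 26 of the 38 listed genes that are not among the 9 (68.4%), against 6.66% of all genes tested. Ifitm3 and Isg20 differed from this, with control replicate 1 as the highest library (11.1 and 23.6 CPM). Control replicates 1 and 4 were both lowest in 5 of the 9 genes, namely Ifih1, Irf7, Stat2, Isg15 and Ifit1. This pair of libraries was singled out after the values of Isg15 and Ifit1 were seen, so the counts are descriptive. Of the pair, control replicate 1 belongs to the high number set and control replicate 4 to the low set. With genotype in the fit, the log2 difference of the high minus the low set was -1.18 to -0.51 in the 5 genes named. It passed in Irf7 alone (edgeR adjusted p = 0.00934). Control replicate 1 is the only control in the high set, so its low values enter this difference. The part of the library numbers in the low values of this pair was not tested.

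Leukocyte markers were measured beside these genes. They summed to 47.6 and 88.4 CPM in control replicates 1 and 4, to 211 and 166 CPM in control replicates 2 and 3, and to 30.0, 14.2, 19.5 and 28.9 CPM in those labelled Ccna2-KO. Within the controls, the libraries with fewer leukocyte marker counts thus had lower interferon-stimulated sums, whereas the libraries labelled Ccna2-KO had the fewest leukocyte marker counts and sums near those of control replicates 2 and 3. The 12 macrophage and dendritic cell markers summed to 7.91 to 20.4 CPM in the controls and 9.95 to 12.9 CPM in those labelled Ccna2-KO. Of these markers 8 were tested, with 1 higher and 1 lower in edgeR, where 6.40% of all genes rose and 5.71% fell. Cd68 rose from a mean of 1.89 to 4.15 CPM (edgeR adjusted p = 0.031). Itgax fell from 2.30 to 0.50 CPM (edgeR adjusted p = 0.037). Siglech, a marker of plasmacytoid dendritic cells, which make type I interferon, was too scarce to test. It had 13 counts in the controls and 5 in the other group. The part of these cells in the interferon-stimulated levels was not tested.

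**Figure D4:**
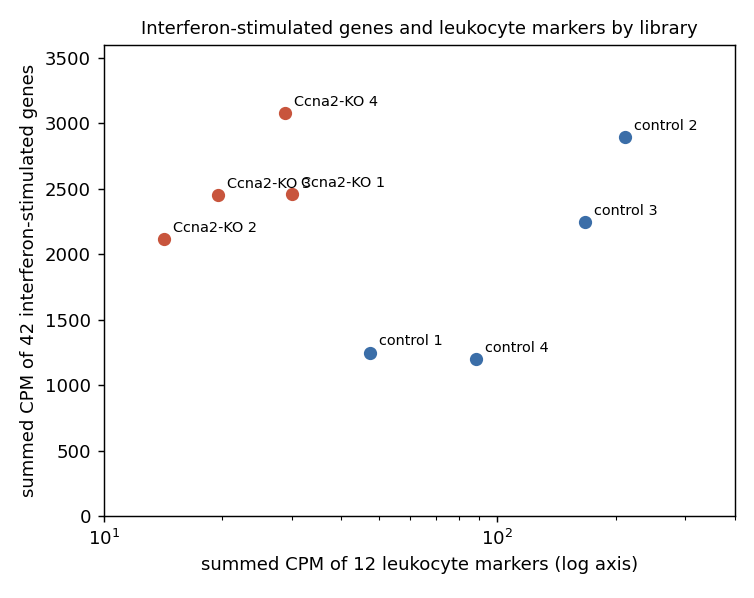
Summed CPM of 42 interferon-stimulated genes (y axis) against summed CPM of 12 leukocyte markers (x axis, log scale) in each library, controls in blue and libraries labelled Ccna2-KO in red. The libraries labelled Ccna2-KO sit at 14.2 to 30.0 CPM of leukocyte markers and 2116 to 3079 CPM of interferon-stimulated genes, away from all controls.

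Genes that damp the interferon response showed no edgeR call. Of 10 such genes, 0 rose and 0 fell in edgeR or DESeq2, and limma voom called 1 higher, against 1129 of all 15893 genes. At an unadjusted p of 0.05 in edgeR, 1 was higher (Usp18) and 1 lower, against 2023 and 2153 of all genes. Tnfaip3, which encodes the ubiquitin-editing enzyme A20, averaged 178 ± 58.4 and 135 ± 50.7 CPM (SD, n = 4 each), and Pias4, a SUMO ligase, 38.6 ± 3.70 and 34.97 ± 1.57 CPM. Usp18, which removes ISG15 from proteins and was named after its values were seen, held 2.40, 13.2, 5.44 and 1.39 CPM in the controls and 12.3, 12.3, 14.98 and 16.0 CPM in those labelled Ccna2-KO. It showed the same low values in control replicates 1 and 4, and its log2 fold change of 1.32 ± 0.57 (SE) did not pass (edgeR adjusted p = 0.177, unadjusted p = 0.0447).

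Some of the 9 genes shared their levels across the 8 libraries. Among Ifih1, Irf7, Stat2, Isg15 and Ifit1, Pearson's r of log2 CPM over the libraries was 0.73 to 0.96 in the 10 pairs. These 5 genes were grouped because the same pair of controls was lowest in each, so high r among them is partly built in. Mb21d1 had 0.05 to 0.60 with these 5 genes. Ddx58, outside the group, had 0.67, 0.74 and 0.71 with Ifih1, Irf7 and Stat2. It had 0.48 and 0.42 with Isg15 and Ifit1, so the group has no sharp border. Libraries of both groups enter these values, so they describe shared levels across libraries and are given without a test. The genes most like Isg15 among 11846 others were Apol9b (r = 0.99), Apol9a (0.99) and Kcnh6 (0.99), of which Apol9a and Apol9b are near-identical copies that can share reads. Those most like Mb21d1 were Zmat3 (r = 0.995), Kpnb1 (0.99) and Atad2 (0.99).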

How the data were processed

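RNA of 8 libraries, 4 per group, was compared. The authors deposited estimated counts per RefSeq transcript, made with kallisto on the mouse build GRCm38 (mm10) per the submitters' processing notes. No version of kallisto is stated there. Because kallisto splits reads among similar transcripts, near-identical genes carry uncertain values. The 687 transcripts without a symbol (3.19% to 5.51% of counts) were left out. Transcripts of 1 symbol were added up, and the sums rounded to whole counts.

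The genotype effect was fitted with edgeR 4.0.16 in R 4.3.3 (default low-count filter, TMM scaling, robust quasi-likelihood F test over 8 libraries, no covariate) on 15893 genes, adjusted by Benjamini and Hochberg with a threshold of 0.05. The SE of a log2 fold change was derived from its F value. CPM was computed on TMM-scaled libraries (prior count 2 on the log2 scale). The script was tested on simulated data. Replicate numbers of the titles were not treated as pairs. Alternatives were RLE and upper quartile scaling, 2 other filters, DESeq2 1.42.0, limma 3.58.1 voom, non-robust estimates, the replicate block, a term for the library number set, single transcripts and leaving out each library.

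The 9 genes and the other lists were chosen with earlier results of these data known. Besides the 9, each list names up to 4 genes with the smallest adjusted p under 0.05 or, where none passed, the 2 with the highest mean CPM. Ccna2, Ptprc and Epcam are named as checks. For Isg15 and Mb21d1 the 3 genes with the highest r among genes with a mean log2 CPM of at least 1 are named. Tbk1, Mavs, Dhx58, Irf5, Ifitm3, Isg20, Epsti1, Usp18, Siglech, Cd68, Itgax, Car1, the interferons, Ifnar1 and Ifnlr1 were named outside this rule. Some of these were named after their values were seen. Positions and promoters are from RefSeq on GRCm38.p6 (Mb21d1 and Tmem173 matched by their older symbols), and transcript lengths from GENCODE M21 on the same build, matched by RefSeq identifier.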

Additional observations from a re-analysis of the deposited data

Results flagged for a closer look

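In 52 groups of 4 libraries (26 named genes, CPM), 2 held a library whose gap to the nearest other was a large share of the range of the group (Dixon's 95% critical value), which chance gives in about 1 of 20 groups. Both were Ccna2-KO replicate 4. Irf7 was at 557 CPM there against 292 to 305 CPM in the other 3 libraries labelled Ccna2-KO. Skiv2l was at 164 CPM against 125 to 130 CPM. This is the only library of its group in the low number set, so the library and the set cannot be told apart.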

How the results depend on the processing

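Mb21d1 stayed higher in all 18 alternatives (log2 fold change 0.87 to 1.065) and passed in 17, the exception being its main transcript alone. Tmem173 stayed lower in all 18 and passed in 9. Ifih1, Irf3, Stat2 and Isg15 passed in 0 of 18 and did not change sign. Reversed signs, none of them past the threshold, were Ddx58 with the number set term (0.0220), Irf7 without Ccna2-KO replicate 4 (-0.0713, with -0.0713 to 0.391 over the libraries left out) and Ccna2 without control replicate 1 (0.236, with -0.583 to 0.236 over the libraries left out). The causes were not tested. With the number set term 1477 of 15893 genes were higher and 1415 lower. In that fit 2 of the 9 genes (Mb21d1 and Irf7) and 6 of the 42 interferon-stimulated genes were higher. Interferon-stimulated genes called higher numbered 4 with DESeq2, 5 with limma voom, and 3 with upper quartile scaling or no filter. Of all genes, these fits called 1410, 1129, 1004 and 1012 higher. Of the 9 genes, 0 were lower with upper quartile scaling or limma voom. The replicate block gave 619 genes higher, 368 lower and 1 interferon-stimulated gene higher. The deviations of same-numbered libraries correlated at -0.07, -0.35, -0.26 and 0.15, and 0 of 4 numbers had libraries that matched each other best, so the numbers did not pair the libraries. Leaving out 1 library gave 572 to 2457 genes higher and 400 to 2170 lower (the lowest counts with Ccna2-KO replicate 3 left out, the highest with control replicate 1 left out), 1 to 2 of the 9 genes higher and 0 to 1 lower, and 0 to 7 interferon-stimulated genes higher and 0 to 0 lower. Interferon transcripts were too few to compare at this depth.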
